A study of Sinotaia aeruginosa with 24 samples.

Results

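ATP-binding cassette (ABC) transporters of a freshwater snail were examined in a transcriptome assembled without a genome. Its clusters of assembled transcripts were the units counted, and several can belong to 1 gene. Members were the clusters whose Pfam domain description contains the words ABC transporter and which have a Swiss-Prot match. This gave 369 of 233875 clusters. Swiss-Prot named 104 of the 369 as ABC proteins, and these 104 carry the results. The other 265 have other names and are described last. Another 237 clusters had the Pfam words but no Swiss-Prot match, and 32 were named as ABC proteins without the Pfam words. Neither set was used.

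The snail was Sinotaia aeruginosa, called Bellamya aeruginosa in the series title. Snails ate algae carrying the pollutants, and RNA was taken on day 42 from 2 tissues labelled Brain and Liver. Each tissue had 4 groups of 3 samples: cadmium with polystyrene microplastic (called combined), cadmium alone, polystyrene alone, and untreated controls, which gives 24 samples in 8 groups. The labels call the exposure medium concentration of each pollutant, without a number, and name neither sex nor age. Replicates were numbered 4, 5 and 6 in brain and 1, 2 and 3 in liver. They are not stated to come from separate animals, so p-values here measure only the spread between these samples, which may be technical. Statements below that groups did not overlap describe the named clusters. The share of all clusters without overlap is not given, so these statements add no support to a call.

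ABC transporters bind and split ATP at a pair of nucleotide-binding domains and use the energy to move lipids, drugs, conjugates or metals across membranes. In animals the ABCA and ABCG subfamilies are known mainly for lipids and sterols, ABCB and ABCC for drug efflux and for export of glutathione and glucuronide conjugates, and ABCD for peroxisomal fatty acids. ABCE and ABCF proteins have the nucleotide-binding domains without a membrane part and act at ribosomes. The roles given below are known from mammals unless another species is named. They were not measured in this snail.

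The label of the set was only partly borne out by the names. The 104 clusters named as ABC proteins comprised 24 ABCA, 18 ABCB, 46 ABCC, 3 ABCD, 1 ABCE, 4 ABCF and 8 ABCG clusters, with 33 product names among them. The best matches were human for 33 clusters, mouse for 24 and rat for 16. Of the 104, 87 carried the ABC nucleotide-binding Pfam domain and 67 carried a Pfam transmembrane domain, found in 38 of 46 ABCC, 16 of 18 ABCB and 7 of 8 ABCG clusters but in 3 of 24 ABCA clusters. No ABCE or ABCF cluster had one. Cluster length ran from 303 to 21540 bases with a median of 3083, so several clusters can be pieces or near copies of 1 gene. ABCC1 alone was the match of 23 clusters, ABCA3 and ABCA5 of 9 each, and ABCC3 of 7. Reads can be split between such clusters, and a value below belongs to its cluster rather than to a whole gene.

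Library totals ran from 13712265 to 17145998 expected counts. Levels are given as CPM, counts brought to a common library size, after trimmed-mean (TMM) scaling over all 24 libraries. Brain control replicate 5 stood apart, with a mean correlation of 0.935 to its own group, against 0.952 to 0.974 in the other libraries. Its summed CPM over the 104 clusters was 1246, against 1634 and 1601 in brain control replicates 4 and 6, so brain results against controls are also given without it. Of the neuronal markers, Synaptotagmin-1 averaged 203 ± 71.3 CPM in control brain and 20.3 ± 1.16 CPM in control liver (SD, n = 3 each), whereas SNAP-25 averaged 42.8 ± 12.5 CPM in control brain and 44.8 ± 5.01 CPM in control liver. Of the digestive gland markers, Cathepsin L averaged 506 ± 84.7 CPM in control brain and 16990 ± 1329 CPM in control liver, and alpha-amylase 2281 ± 1333 CPM in control brain and 6669 ± 873 CPM in control liver. Endoglucanase E-4 of the same list averaged 0.915 ± 0.844 CPM in control brain and 3443 ± 471 CPM in control liver. Synapsin of the neuronal list averaged 9.57 ± 3.08 CPM in control brain and 0.297 ± 0.0484 CPM in control liver. ELAV-like protein 4 of the neuronal list averaged 137 ± 8.4 CPM in control brain and 107 ± 3.95 CPM in control liver. Acidic mammalian chitinase of the digestive gland list averaged 222 ± 126 CPM in control brain and 5367 ± 426 CPM in control liver. Control brain thus held RNA of alpha-amylase, Cathepsin L and chitinase, with Endoglucanase E-4 near 0. Control liver held RNA of SNAP-25, ELAV-like protein 4 and Synaptotagmin-1, with Synapsin near 0. Whether RNA of 1 tissue was carried into the other was not tested.

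Levels were uneven across the 104 clusters. Mean CPM was at least 10 in 40 clusters and under 1 in 30, and the 10 most abundant clusters held 53.0% of the summed CPM. Per kilobase of cluster length, the highest level was that of ABCF2 (Cluster-2499.87526), a translation-associated ATPase, at 72.3 CPM per kb in control brain and 68.6 CPM per kb in control liver. The ABCE1 ribosome recycling factor (Cluster-2499.89862) followed with 23.9 CPM per kb in control brain and 34.8 CPM per kb in control liver. The most abundant drug efflux pump was an ABCB1 cluster (P-glycoprotein, Cluster-2499.85605), with 14.4 CPM per kb in control brain and 34.0 CPM per kb in control liver. The summed level of all 104 was 1494 ± 215 CPM in control brain and 2301 ± 96.1 CPM in control liver. Without TMM scaling the order turned, with 1843 ± 305 CPM in control brain and 1825 ± 31.8 CPM in control liver.

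Control brain and control liver differed in the level of most tested ABC clusters. Of the 104, 84 passed the low-count filter over both tissues, and 65 of these were called at an edgeR adjusted p under 0.05 (quasi-likelihood test, Benjamini-Hochberg over all clusters tested), 18 higher and 47 lower in brain. Among all 78809 clusters tested, 49.7% were called, 23.5% higher and 26.2% lower in brain. The median log2 fold change was -1.20 over the 84 and 0.00 over all clusters. Without brain control replicate 5 the counts were 17 higher and 45 lower. In whole tissue, fewer cells of a type and less RNA per cell cannot be told apart. The digestive gland list moved with this comparison: its 96 clusters summed to 3419 to 8048 CPM in control brain, with 21 clusters at 0, and to 40380 to 48840 CPM in control liver, with 11 at 0. The 22 muscle clusters went the other way, at 6684 to 14790 CPM in control brain (0 at 0) and 420 to 515 CPM in control liver (10 at 0). Neuronal sums overlapped, at 1117 to 1694 CPM in control brain and 1111 to 1314 CPM in control liver. Cilia sums overlapped too, at 1096 to 1859 CPM in control brain and 532 to 1331 CPM in control liver. The part of these lists in the differences was not tested.

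Sterol half-transporters of the ABCG subfamily were far lower in brain. ABCG5 and ABCG8 act in mammals as a pair that exports sterols from liver and gut cells. An ABCG8 cluster (Cluster-2499.86392) had 0 counts in every brain library, against 22.5, 20.5 and 25.2 CPM in the control livers. It was at least 427-fold lower in control brain, against a floor of 3 counts over the group (762 counts in control liver). A second ABCG8 cluster (Cluster-2499.76725), a weak match, had 2 counts in control brain and 575 in control liver, a ratio of 484 with a 95% exact interval of 133 to 4000 that covers counting error only. ABCG5 (Cluster-2499.69979), also a weak match, had 0.0526, 0.221 and 0.0512 CPM in control brain, against 21.2, 14.8 and 17.9 CPM in control liver (log2 fold change -7.30, SE 0.41, edgeR adjusted p = 2.98e-13). ABCG2 (Cluster-2499.88135), an efflux pump of broad substrate range, had 12.1, 15.5 and 11.4 CPM in control brain, against 81.3, 94.3 and 87.3 CPM in control liver (log2 fold change -2.75, SE 0.20, edgeR adjusted p = 5.56e-11). In each of these 4 clusters every brain control lay below every liver control. In all, 6 of 7 tested ABCG clusters were lower in brain and 0 higher, or 5 and 0 with library totals in place of TMM, under which ABCG1 and the uncalled ABCG14 (Cluster-2499.37645) changed sign.

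The ABCA subfamily was split between the tissues, with 10 clusters higher and 9 lower in brain of 22 tested. ABCA1 (Cluster-2499.100708), which in mammals loads cholesterol and phospholipid onto apolipoproteins, had 374, 298 and 319 CPM in control brain, against 3.59, 8.42 and 6.59 CPM in control liver (log2 fold change 5.73, SE 0.46, edgeR adjusted p = 1.69e-09). The direction differed even among clusters with the same best match, ABCA3, a phospholipid transporter of lung surfactant bodies. Cluster-2499.110211 had 124, 63.5 and 154 CPM in control brain, against 2.01, 2.38 and 1.62 CPM in control liver (log2 fold change 5.81, SE 0.38, edgeR adjusted p = 1.8e-11). Cluster-2499.86315 had 3.63, 0.497 and 2.97 CPM in control brain, against 194, 186 and 199.6 CPM in control liver (log2 fold change -6.34, SE 0.47, edgeR adjusted p = 5.85e-10). Neither pair of groups overlapped. ABCA5 showed the same mix. Cluster-2499.126157 had 300 counts in control brain and 2 in control liver, a ratio of 89.2 (95% exact interval 24.5 to 740), while Cluster-2499.91959 was lower in brain by a log2 fold change of -4.62 (SE 0.38, edgeR adjusted p = 9.29e-10).

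Drug and conjugate exporters were mostly lower in brain: 9 of 15 tested ABCB clusters and 19 of 33 tested ABCC clusters were lower, against 2 and 6 higher. ABCB4 (Cluster-2499.87887), the phosphatidylcholine exporter of mammalian bile, had 5.89, 1.82 and 4.25 CPM in control brain, against 119, 132 and 149 CPM in control liver (log2 fold change -5.06, SE 0.33, edgeR adjusted p = 7.42e-12). ABCC4 (Cluster-2499.85887), an exporter of cyclic nucleotides and organic anions, had 23.0, 19.8 and 23.0 CPM in control brain, against 91.5, 78.1 and 90.7 CPM in control liver (log2 fold change -1.98, SE 0.14, edgeR adjusted p = 2.69e-11). An ABCC1 cluster (Cluster-2499.81436), named for the exporter of glutathione conjugates, had 2 counts in control brain and 382 in control liver, a ratio of 321 (95% exact interval 88.3 to 2660). In all 3 the brain controls lay below the liver controls. Among the clusters higher in brain were ABCC1 (Cluster-2499.93469; log2 fold change 1.43, SE 0.17, edgeR adjusted p = 1.49e-07) and ABCB6 (Cluster-2499.80405), a porphyrin transporter, with 57.8, 46.6 and 45.6 CPM in control brain, against 32.7, 34.8 and 37.9 CPM in control liver.

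The peroxisomal and ribosomal subfamilies differed little, and their direction hung on the scaling. Under TMM all 3 ABCD clusters and ABCE1 were called lower in brain, and 0 of 3 tested ABCF clusters were called. TMM placed the median of all clusters at 0.00, whereas library totals without TMM, an alternative chosen after seeing the data, placed it at 0.64. Under library totals the 104 gave 24 higher and 40 lower calls, with ABCA at 10 and 9, ABCB at 3 and 8, ABCC at 9 and 17, ABCG at 0 and 5, ABCD at 0 and 1, ABCE at 0 and 0, and ABCF at 2 and 0. ABCE1 then had a log2 fold change of 0.092, ABCF3 (Cluster-2499.86944) 0.61 and ABCG1 (Cluster-2499.84840), a cholesterol exporter, 0.18, against -0.54 for ABCE1 and -0.46 for ABCG1 under TMM. In all, 11 clusters were below 0 under TMM and above 0 under library totals, and 3 of them, ABCE1, ABCG1 and ABCB8 (Cluster-2499.93854, log2 fold changes -0.56 and 0.091), had been called under TMM. ABCB8 and ABCG14 were named after their values were seen. No direction between the tissues is therefore given for ABCE, ABCF, ABCB8, ABCG1 or ABCG14.

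**Figure D1:**
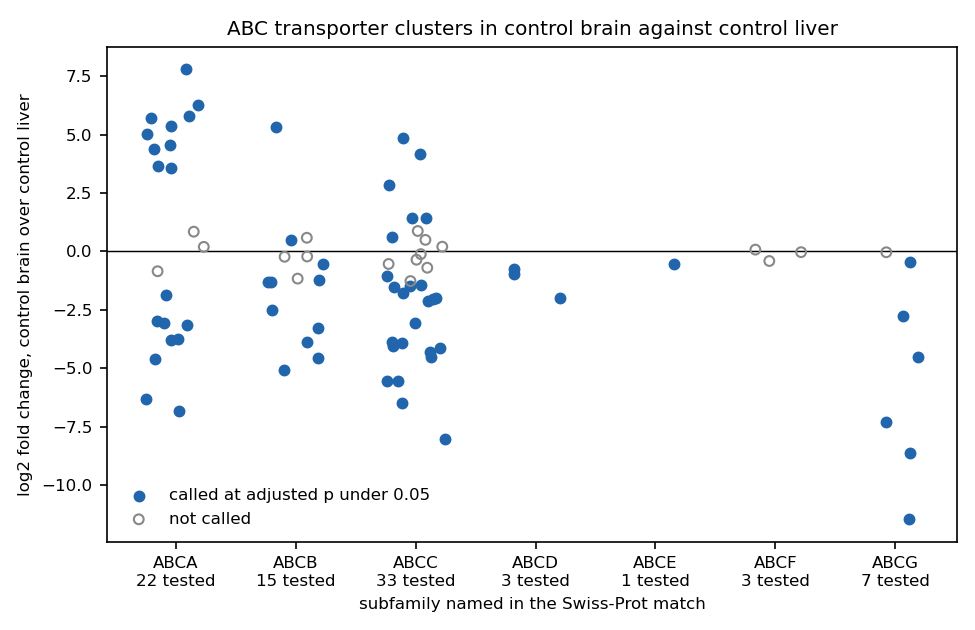
Log2 fold change of control brain over control liver (vertical axis) for each tested ABC cluster, by subfamily (horizontal axis), with filled points for clusters called at an edgeR adjusted p under 0.05. ABCA clusters lie on both sides of 0, whereas all 7 tested ABCG clusters lie below it under TMM scaling (ABCG1 and ABCG14 lie above it with library totals).

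Exposure moved few ABC clusters in liver. Summed over the 104, combined livers had 2056 ± 51.5 CPM, cadmium livers 2295 ± 89.2 CPM, polystyrene livers 2272 ± 40.0 CPM and control livers 2301 ± 96.1 CPM (SD, n = 3 each). The highest combined liver, at 2090 CPM, lay below the lowest control liver, at 2223 CPM. The same held for the ABCG sum, with 160 ± 5.90 CPM in combined, 193 ± 17.0 CPM in cadmium, 190.0 ± 6.25 CPM in polystyrene and 210.5 ± 6.03 CPM in control livers. These sums were not tested. The 3 exposure comparisons of a tissue share their 3 control libraries. Of the 104 clusters, 74 passed the liver filter and 30 did not.

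**Figure D2:**
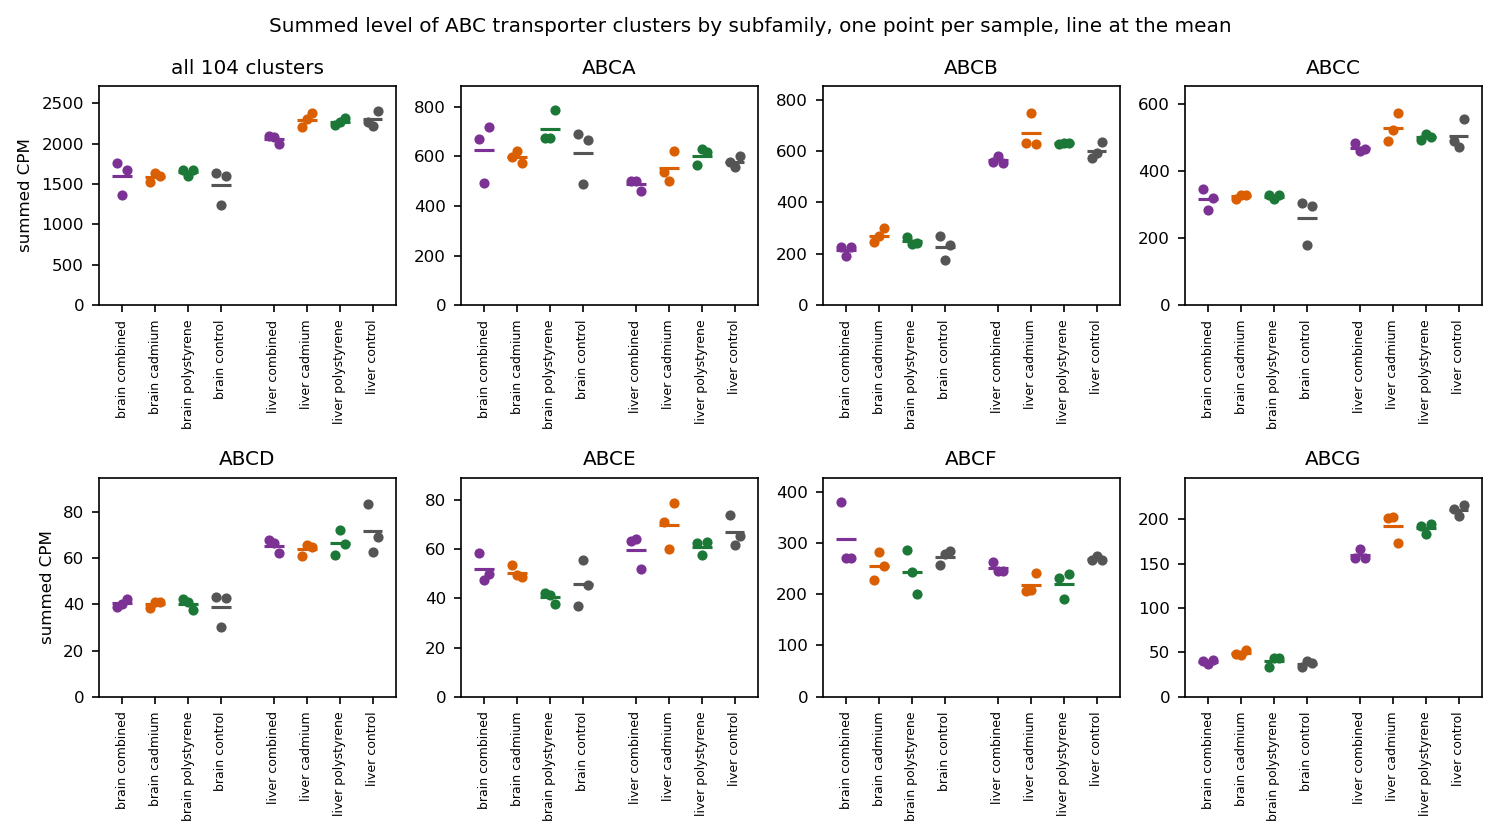
Summed CPM of ABC clusters (vertical axis) by tissue and treatment (horizontal axis), with 1 panel for all 104 clusters and 1 for each subfamily, 1 point per sample and a line at the mean. The ABCG sum lies between 33.8 and 52.2 CPM in the brain samples and between 156 and 216 CPM in the liver samples.

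In cadmium livers both tested ABCG8 sterol transporter clusters fell and an ABCC1 cluster rose. Of 74 tested, 1 was higher and 4 lower, where 3.46% of all clusters were called, 1.66% higher and 1.8% lower. Over all 74, 20 had an unadjusted p under 0.05. ABCG8 (Cluster-2499.86392) had 15.3, 11.7 and 14.2 CPM in cadmium livers, against 22.5, 20.5 and 25.2 CPM in control livers (log2 fold change -0.72, SE 0.17, edgeR adjusted p = 0.0299). The other ABCG8 cluster (Cluster-2499.76725) had 10.2, 10.7 and 9.77 CPM in cadmium livers, against 17.1 CPM in each control liver (log2 fold change -0.74, SE 0.15, edgeR adjusted p = 0.0186). Both sets of cadmium livers lay below all controls. ABCA5 (Cluster-2499.82282), a lysosomal lipid transporter, had 25.7, 23.9 and 34.8 CPM in cadmium livers, against 46.3, 47.3 and 50.3 CPM in control livers (log2 fold change -0.77, SE 0.16, edgeR adjusted p = 0.0161). ABCC1 clusters went both ways. Cluster-2499.78900 had 9.56, 7.25 and 12.8 CPM in cadmium livers, against 2.98, 2.89 and 4.30 CPM in control livers (log2 fold change 1.55, SE 0.37, edgeR adjusted p = 0.0341), and Cluster-2499.78828 had 0.423, 1.12 and 0.813 CPM in cadmium livers, against 2.03, 6.12 and 3.15 CPM in control livers (log2 fold change -2.25, SE 0.49, edgeR adjusted p = 0.0228). In these 3 clusters too the groups did not overlap.

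The cadmium calls in liver were fragile to single libraries. Of 5 calls, 0 were left without control replicate 2, 1 without control replicate 3 or cadmium replicate 1, and 3 without control replicate 1 or cadmium replicate 2. Of the 2 ABCG8 clusters, Cluster-2499.86392 lost its call in all 6 omissions, with edgeR adjusted p up to 0.115, and Cluster-2499.76725 in 4 of 6, with p up to 0.0764. ABCA5 was lost without control replicate 2 or 3 or cadmium replicate 1 or 2, with p up to 0.0774. Muscle markers moved with cadmium in liver: 3 of 10 tested were higher, and the 22 summed to 607 to 822 CPM in cadmium livers and 420 to 515 CPM in control livers, with 10 clusters at 0 in both groups. Their part in the result was not tested.

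In polystyrene livers 0 of 74 clusters were called by edgeR, where 3.14% of all clusters were called, 1.58% higher and 1.56% lower. At an unadjusted p under 0.05 there were 9, and DESeq2's Wald test called 2. The sums above lay within 1 SD of the control livers for all 104 clusters together.

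In combined livers 0 clusters were higher and 5 lower, where 6.24% of all clusters were called, 2.86% higher and 3.39% lower, so the share of ABC clusters called was close to that of all clusters. At an unadjusted p under 0.05 there were 16. ABCG2 (Cluster-2499.88135) had 58.4, 60.3 and 53.8 CPM in combined livers, against 81.3, 94.3 and 87.3 CPM in control livers (log2 fold change -0.63, edgeR adjusted p = 0.0316). ABCA3 (Cluster-2499.86315) had 153, 149 and 118 CPM in combined livers, against 194, 186 and 199.6 CPM in control livers (log2 fold change -0.49, edgeR adjusted p = 0.0265). ABCB6 (Cluster-2499.80405) had 27.0, 24.6 and 22.9 CPM in combined livers, against 32.7, 34.8 and 37.9 CPM in control livers (log2 fold change -0.52, SE 0.12, edgeR adjusted p = 0.0189). The other 2 were ABCC1 clusters, Cluster-2499.78828 with a log2 fold change of -2.14 (edgeR adjusted p = 0.0213) and Cluster-2499.88760 with -0.47 (edgeR adjusted p = 0.0433). In the 5 clusters every combined liver lay below every control liver. Groups also did not overlap in uncalled clusters, such as ABCF2 (Cluster-2499.87526, edgeR adjusted p = 0.539) and ABCA5 (Cluster-2499.86265, edgeR adjusted p = 0.723). The count was 3 without control replicate 1, 2 without combined replicate 1, 1 without control replicate 3 or combined replicate 2, and 0 without control replicate 2 or combined replicate 3. Cilia and muscle markers moved with this comparison: the 105 cilia clusters summed to 318 to 353 CPM in combined livers, with 13 at 0, and 532 to 1331 CPM in control livers, with 15 at 0, and 19 of 65 tested were lower. Of 10 tested muscle markers 7 were higher, with sums of 785 to 848 CPM in combined livers and 420 to 515 CPM in control livers, and 10 of 22 at 0 in each group. Their part in the result was not tested.

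The largest count of ABC calls in liver came from setting combined against cadmium exposure: 0 higher and 8 lower of 74, where 2.5% of all clusters were called, 1.12% higher and 1.38% lower. At an unadjusted p under 0.05 there were 23. ABCC4 (Cluster-2499.85887) had 67.5, 79.2 and 73.3 CPM in combined livers, against 103, 114 and 106 CPM in cadmium livers (log2 fold change -0.58, edgeR adjusted p = 0.0117). It kept its call in all 6 omissions, with p up to 0.0494. It had a p of 0.0508 in a fit on the 6 samples compared. ABCG2 had 58.4, 60.3 and 53.8 CPM in combined livers, against 109.7, 116 and 74.6 CPM in cadmium livers (log2 fold change -0.83, edgeR adjusted p = 0.0168). ABCB1 (Cluster-2499.85605), the multidrug efflux pump, had 166, 162 and 137 CPM in combined livers, against 208, 246 and 208 CPM in cadmium livers (log2 fold change -0.53, edgeR adjusted p = 0.0199). Every combined liver lay below every cadmium liver in these 3 clusters.

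The other 5 calls of combined against cadmium liver were ABCA3 (Cluster-2499.86315, log2 fold change -0.58), ABCB6 (Cluster-2499.80405, -0.52), ABCF1 (Cluster-2499.95961, -0.57), which acts in translation initiation in mammals, and the ABCC1 clusters Cluster-2499.44292 (-0.91) and Cluster-2499.78900 (-1.51), with edgeR adjusted p of 0.0203 to 0.0488. For the last, 2.32, 4.72 and 3.50 CPM in combined livers stood against 9.56, 7.25 and 12.8 CPM in cadmium livers, so the high level of the cadmium livers was not seen in the combined ones. Without cadmium replicate 1 or combined replicate 2 the count was 4, without cadmium replicate 2 or combined replicate 3 it was 1, and a fit on the 6 samples compared left 0. Cilia markers stood lower in this comparison too, at 318 to 353 CPM in combined livers (13 of 105 at 0), against 378 to 545 CPM in cadmium livers (12 at 0), with 1 higher and 0 lower called of 65 tested. Their part in the result was not tested.

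Combined against polystyrene livers gave 0 calls of 74 by edgeR, where 1.32% of all clusters were called, 0.491% higher and 0.829% lower. There were 10 at an unadjusted p under 0.05, DESeq2's Wald test called 2, and edgeR called 1 without combined replicate 1. The combined exposure was also set against the sum of the 2 single responses on the log2 scale, a departure from additivity. It was below that sum in 2 clusters and above it in 0, where 1.78% of all clusters were called, 0.814% above and 0.97% below. These were ABCC1 (Cluster-2499.44292, departure -1.37, edgeR adjusted p = 0.0337) and ABCB1 (Cluster-2499.85605, departure -0.67, edgeR adjusted p = 0.037). The ABCC1 cluster had 6.95, 6.90 and 5.38 CPM in combined, 8.80 to 14.6 CPM in cadmium, 9.54, 8.17 and 10.6 CPM in polystyrene and 6.83, 6.12 and 7.54 CPM in control livers. The ABCB1 cluster had 218, 204 and 200.3 CPM in polystyrene livers and 188, 195 and 182 CPM in control livers, beside the values given above. Both single exposures thus lay above the controls, and in ABCB1 the combined livers lay below them. The calls were lost in 9 and 10 of 12 omissions, with edgeR adjusted p up to 0.091 for ABCC1 and 0.0946 for ABCB1. The libraries behind the losses were controls 1, 2 and 3, cadmium 2, polystyrenes 1, 2 and 3 and combined 2 and 3 for both, and cadmium 1 for ABCB1. Without cadmium replicate 3 there were 4 departures.

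**Figure D3:**
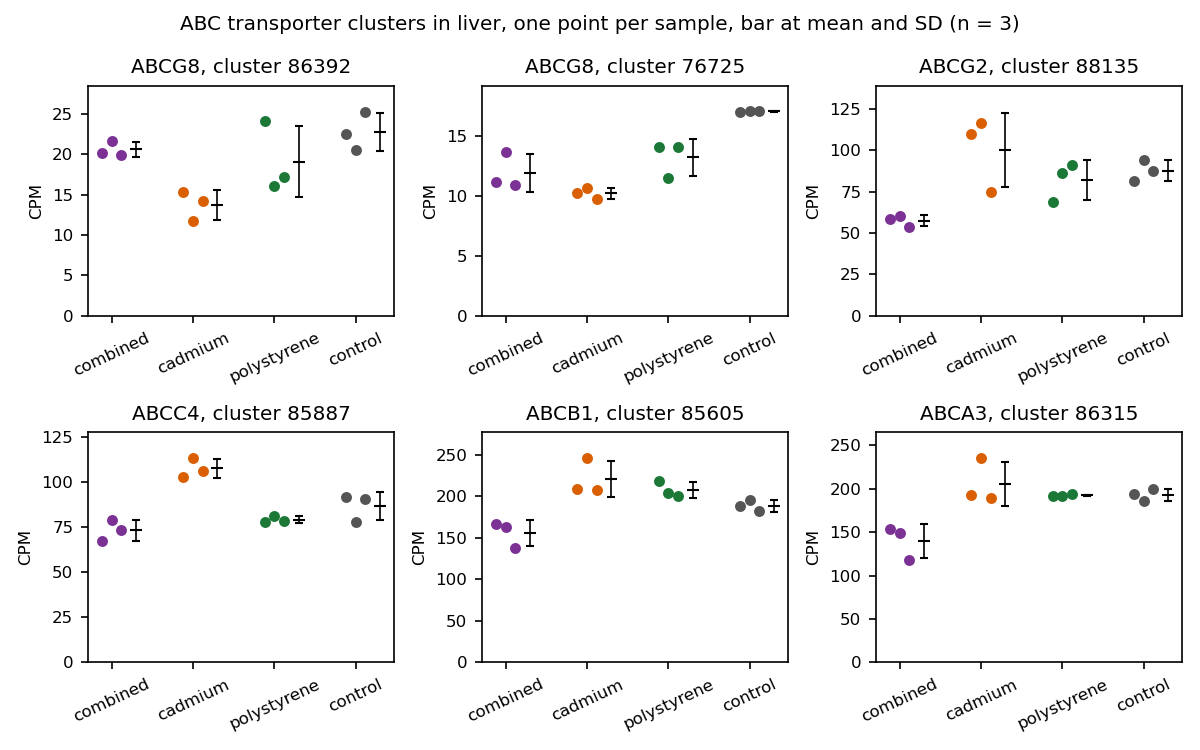
CPM (vertical axis) of 6 ABC clusters in combined, cadmium, polystyrene and control livers (horizontal axis), 1 point per sample with the mean and SD (n = 3). Both ABCG8 clusters have their lowest mean in cadmium livers, and ABCG2, ABCC4, ABCB1 and ABCA3 have lower values in combined than in cadmium livers.

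In brain, 75 of the 104 clusters passed the filter and 29 did not. An ABCA3 cluster, Cluster-2499.69072, rose under each exposure. It had 5.47, 2.88 and 3.72 CPM in combined, 4.03, 4.74 and 7.36 CPM in cadmium, 4.92, 3.30 and 3.47 CPM in polystyrene and 1.32, 0.276 and 0.717 CPM in control brains. All 9 exposed brains lay above all 3 controls. The log2 fold changes were 2.35 in combined (SE 0.46, edgeR adjusted p = 0.0107), 2.78 in cadmium (SE 0.46, edgeR adjusted p = 0.00356) and 2.31 in polystyrene brains (SE 0.46, edgeR adjusted p = 0.00883). Each call was kept in all 6 omissions, brain control replicate 5 included, and the combined one had an edgeR adjusted p of 0.0717 in a fit on the 6 samples compared. The control livers, at 14.4, 8.76 and 8.69 CPM, lay above every brain sample in this cluster. Digestive gland markers summed to 3631 to 5374 CPM in combined brains (19 of 96 at 0) and 5412 to 7053 CPM in cadmium brains (14 at 0). The sums were 3550 to 4942 CPM in polystyrene brains (18 at 0) and 3419 to 8048 CPM in control brains (21 at 0). Whether these markers had a part in the rise was not tested.

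Under cadmium this ABCA3 cluster was the single call in brain: 1 was higher and 0 lower of 75, where 4.34% of all clusters were called, 2.6% higher and 1.75% lower. The combined exposure likewise gave that 1 higher and 0 lower, where 3.92% were called, 2.13% higher and 1.79% lower. Polystyrene gave 5 higher and 1 lower, where 7.08% were called, 4.66% higher and 2.42% lower, so the share of ABC clusters was near that of all clusters. The median log2 fold change over the 75 was 0.19 in combined, 0.28 in cadmium and 0.36 in polystyrene brains. Over all clusters it was -0.0086, -0.0077 and -0.0035 in these groups. Without brain control replicate 5, combined gave 1 higher and 2 lower (ABCA3 Cluster-2499.115511 and ABCC3 Cluster-2499.128042 added), cadmium 2 higher and 0 lower (ABCG2 added) and polystyrene 4 higher and 0 lower. Combined brains gave 3 calls without control replicate 6 and 2 without combined replicate 6. Library totals without TMM gave 8 higher and 0 lower for polystyrene, and moved the median of all clusters to 0.11.

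Besides ABCA3, 5 ABC clusters were called in polystyrene brains. ABCA2 (Cluster-2499.80156), a lysosomal lipid transporter abundant in mammalian brain, had 29.7, 42.4 and 62.7 CPM in polystyrene brains, against 11.3, 12.7 and 4.61 CPM in control brains (log2 fold change 2.22, edgeR adjusted p = 0.0149). ABCA5 (Cluster-2499.87417) had 10.1, 10.4 and 7.60 CPM in polystyrene brains, against 3.68, 2.49 and 5.02 CPM in control brains (log2 fold change 1.31, edgeR adjusted p = 0.0149). ABCC4 (Cluster-2499.35291) had 6.31, 4.59 and 7.70 CPM in polystyrene brains, against 2.37, 0.994 and 1.28 CPM in control brains (log2 fold change 1.98, edgeR adjusted p = 0.0166). In these 3 clusters every polystyrene brain lay above every control. ABCC1 (Cluster-2499.93807) had 0.374, 3.10 and 5.34 CPM in polystyrene brains, against 0.368, 0.221 and 0.205 CPM in control brains (log2 fold change 3.43, edgeR adjusted p = 0.0199). Here polystyrene replicate 4 was at the level of the highest control, and the other 2 carried the difference. ABCG2 fell, with 5.82, 8.66 and 8.21 CPM in polystyrene brains, against 12.1, 15.5 and 11.4 CPM in control brains (log2 fold change -0.80, edgeR adjusted p = 0.0441).

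Several of these calls rested on 1 library. Without brain control replicate 5, ABCA2, ABCC1 and ABCG2 were no longer called, and ABCA5 (Cluster-2499.28778) was added. Without polystyrene replicate 6, the count was 2, with ABCA2, ABCC1, ABCC4 and ABCG2 lost, and without polystyrene replicate 5 it was 3, with ABCA5, ABCC1 and ABCG2 lost. ABCC4 was also lost without control replicate 6, as was ABCC1. The edgeR adjusted p reached 0.0531 for ABCA2, 0.0604 for ABCA5, 0.0656 for ABCC4, 0.104 for ABCC1 and 0.157 for ABCG2, and ABCG2 was lost in all 6 omissions.

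In combined brains an ABCC3 cluster was lower than under either single exposure, and the ABCG2 and ABCB1 efflux pumps were lower than under cadmium. Against cadmium, 1 ABC cluster was higher and 3 lower, where 2.79% of all clusters were called, 1.25% higher and 1.53% lower. Against polystyrene, 0 were higher and 4 lower, where 3.51% were called, 1.24% higher and 2.26% lower. ABCC3 (Cluster-2499.128042), an organic anion exporter, had 3.74, 4.67 and 2.53 CPM in combined, 15.4, 8.60 and 14.1 CPM in cadmium and 13.1, 14.0 and 10.3 CPM in polystyrene brains, and 9.15, 3.37 and 7.43 CPM in control brains. The combined brains lay below both single exposures, with log2 fold changes of -1.81 against cadmium (edgeR adjusted p = 0.0119) and -1.77 against polystyrene (edgeR adjusted p = 0.0132). These 2 calls were lost without cadmium replicate 4 (edgeR adjusted p = 0.0578) and without polystyrene replicate 5 (edgeR adjusted p = 0.0511). ABCG2 had 10.4, 9.49 and 11.7 CPM in combined brains, against 17.5, 23.0 and 26.8 CPM in cadmium brains (log2 fold change -1.10, edgeR adjusted p = 0.0157). ABCB1 (Cluster-2499.85605) had 73.6, 57.4 and 65.6 CPM in combined brains, against 93.9, 107 and 143 CPM in cadmium brains (log2 fold change -0.82, edgeR adjusted p = 0.0397). Against polystyrene neither pump was called, with log2 fold changes of 0.47 for ABCG2 (edgeR adjusted p = 0.288) and -0.43 for ABCB1 (edgeR adjusted p = 0.277). Muscle markers stood higher in combined brains, at 16620 to 30260 CPM (9 of 22 clusters at 0), against 9137 to 14600 CPM in cadmium (5 at 0), 6784 to 12570 CPM in polystyrene (1 at 0) and 6684 to 14790 CPM in control brains (0 at 0). Digestive gland markers stood lower in combined brains, at 3631 to 5374 CPM (19 of 96 at 0), against 5412 to 7053 CPM in cadmium brains (14 at 0), and so did cilia markers, at 1244 to 1427 CPM in combined brains (11 of 105 at 0), against 1499 to 1592 CPM in cadmium brains (10 at 0). ABCG2 and ABCB1 were themselves called lower in control brain than in control liver. The part of these markers in the result was not tested.

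ABCG2 and ABCB1 were also lower in combined than in cadmium livers, as given above, so these 2 efflux pump clusters were called lower in combined than in cadmium samples of both tissues. Against controls this ABCB1 cluster was not called, with edgeR adjusted p of 0.26 in cadmium livers, 0.11 in combined livers, 0.176 in cadmium brains and 0.468 in combined brains. ABCG2 was called against controls in combined livers, but not in cadmium livers (edgeR adjusted p = 0.563), cadmium brains (0.0639) or combined brains (0.495). Of the ABCB1 clusters tested, 1 of 6 was called in combined against cadmium livers and 1 of 5 in brains. Both calls hung on single libraries in each tissue. In liver ABCB1 was lost without cadmium replicate 2 or combined replicate 3, with edgeR adjusted p up to 0.0953, and ABCG2 without these or cadmium replicate 1, with p up to 0.069. In the fit on the 6 livers compared, the edgeR adjusted p was 0.0802 for ABCB1 and 0.0542 for ABCG2. In brain ABCB1 was lost in all 6 omissions, with edgeR adjusted p up to 0.195, and ABCG2 in 3 of 6 (cadmium replicates 5 and 6 and combined replicate 5), with p up to 0.0831. ABCA5 (Cluster-2499.86265) was higher in combined than in cadmium brains, at 8.15, 4.32 and 3.18 CPM in combined brains, against 1.99, 1.84 and 1.18 CPM in cadmium brains (log2 fold change 1.63, edgeR adjusted p = 0.0364), and lost its call in 5 of 6 omissions. Of the 4 calls of combined against cadmium brains, 1 was left without any 1 of the cadmium brains or combined replicate 5, and 2 without combined replicate 4.

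The remaining calls of combined against polystyrene brains came from low counts. ABCA8A (Cluster-2499.10825) had 1 count in combined and 73 in polystyrene brains, a ratio of 69.5 (95% exact interval 12.1 to 2780). ABCA5 (Cluster-2499.28778) had 1 count in combined and 76 in polystyrene brains, a ratio of 72.3 (95% exact interval 12.6 to 2890). ABCC1 (Cluster-2499.93807) had a log2 fold change of -3.45 (edgeR adjusted p = 0.0298), but its groups overlapped, with 0.167, 0.248 and 0.377 CPM in combined brains and 0.374, 3.10 and 5.34 CPM in polystyrene brains. Of the 4 calls in this comparison, 0 were left without polystyrene replicate 5, 1 without combined replicate 5, and 2 without polystyrene replicate 6 or combined replicate 4 or 6.

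The called departures from additivity in brain were negative: 0 ABC clusters lay above the sum of the single responses and 4 below, where 5.97% of all clusters were called, 2.25% above and 3.73% below. The median departure was -0.41 over the 75 clusters and -0.0123 over all clusters. Under library totals without TMM the counts were 0 and 7, with the median of all clusters at -0.21. ABCC3 (Cluster-2499.128042) departed by -2.69 (edgeR adjusted p = 0.00571) and was called in all 12 omissions, with p up to 0.02. ABCA3 (Cluster-2499.69072) departed by -2.74 (edgeR adjusted p = 0.0182): each exposure gave about the same level, as the values above show, so that their log2 responses did not add. This call was lost without cadmium replicate 6 (edgeR adjusted p = 0.0524). ABCA2 (Cluster-2499.80156), at 15.4, 14.5 and 18.9 CPM in combined and 29.5, 8.77 and 21.4 CPM in cadmium brains, departed by -2.52 (edgeR adjusted p = 0.0374) and lost its call in 10 of 12 omissions, among them brain control replicate 5. The fourth, ABCA5 (Cluster-2499.28778), had 1 count in the combined brains and lost its call in 8 of 12. The count of 4 became 1 without cadmium replicate 6, and 2 without cadmium replicate 4, polystyrene replicate 5 or 6, or combined replicate 4 or 5.

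**Figure D4:**
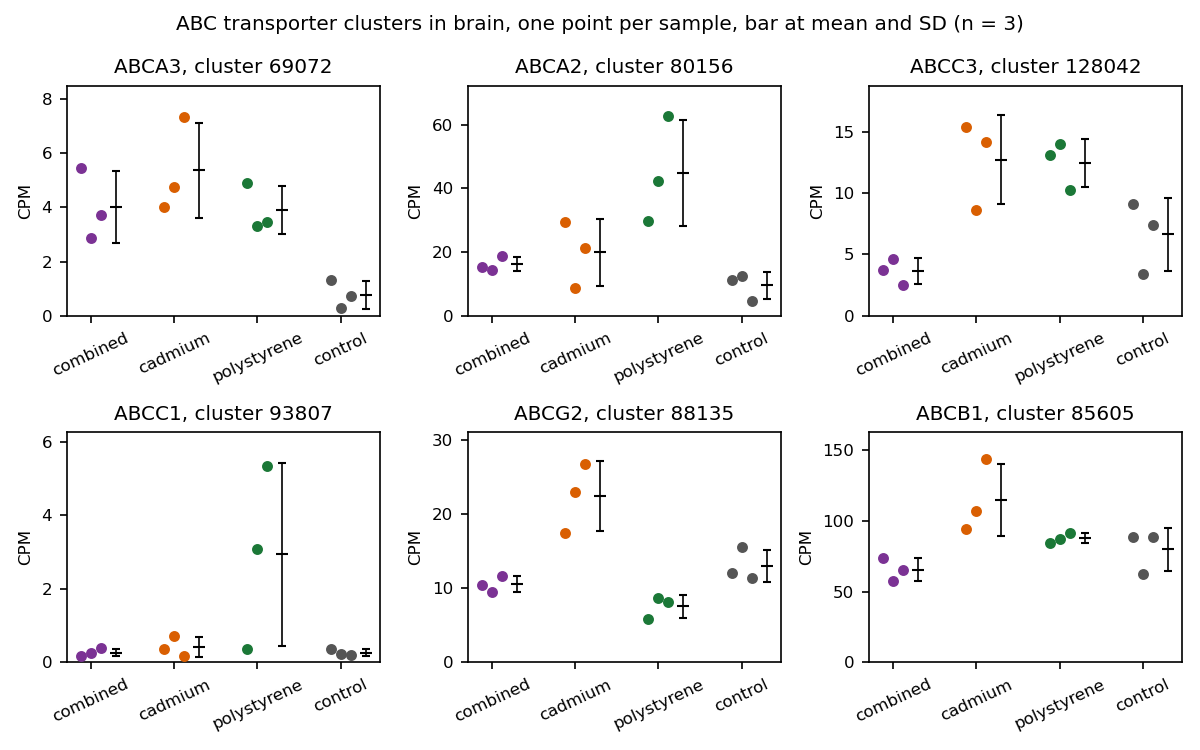
CPM (vertical axis) of 6 ABC clusters in combined, cadmium, polystyrene and control brains (horizontal axis), 1 point per sample with the mean and SD (n = 3). ABCA3 is above the controls under all 3 exposures, ABCA2 is highest in polystyrene brains, and ABCC3, at 2.53 to 4.67 CPM, is lower in combined brains than under either single exposure.

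Whether brain and liver responded differently was tested directly as the difference of the 2 responses. For combined exposure 1 ABC cluster of 84 had a higher response in brain and 0 a lower one, where 1.98% of all clusters were called, 1.2% higher and 0.78% lower. For cadmium the counts were 1 and 0, where 2.23% were called, 1.41% higher and 0.815% lower. For polystyrene they were 3 and 0, where 2.84% were called, 1.72% higher and 1.12% lower. ABCA3 (Cluster-2499.69072) appeared in all 3, with brain minus liver differences in log2 response of 2.48 for combined (edgeR adjusted p = 0.0122), 2.76 for cadmium (edgeR adjusted p = 0.0048) and 1.86 for polystyrene (edgeR adjusted p = 0.0499). In liver it had 6.29, 11.2 and 11.9 CPM in combined, 10.2, 9.16 and 13.1 CPM in cadmium, 13.7, 14.2 and 15.8 CPM in polystyrene and 14.4, 8.76 and 8.69 CPM in control samples. All 3 exposed groups of livers overlapped the control livers. The polystyrene difference was lost in 11 of 12 omissions, brain control replicate 5 among them, with p up to 0.126.

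The other differences between tissues were in the polystyrene response. ABCA2 (Cluster-2499.80156) differed by 2.62 (edgeR adjusted p = 0.00796) and had 5.18, 6.24 and 7.64 CPM in polystyrene livers, against 6.48, 7.99 and 10.5 CPM in control livers. ABCC1 (Cluster-2499.93807) differed by 3.82 (edgeR adjusted p = 0.00786) and had 20.7, 17.5 and 18.2 CPM in polystyrene livers, against 25.6, 22.3 and 25.5 CPM in control livers. Both were called in all 12 omissions. Without brain control replicate 5 the counts were 1 higher and 1 lower for combined (ABCC4 Cluster-2499.91398 added), 1 and 0 for cadmium, and 2 and 0 for polystyrene. For cadmium there were 3 without brain control replicate 4 and 2 without liver cadmium replicate 3 or brain cadmium replicate 5, and for combined there were 2 without brain control replicate 6 or brain combined replicate 5.

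**Figure D5:**
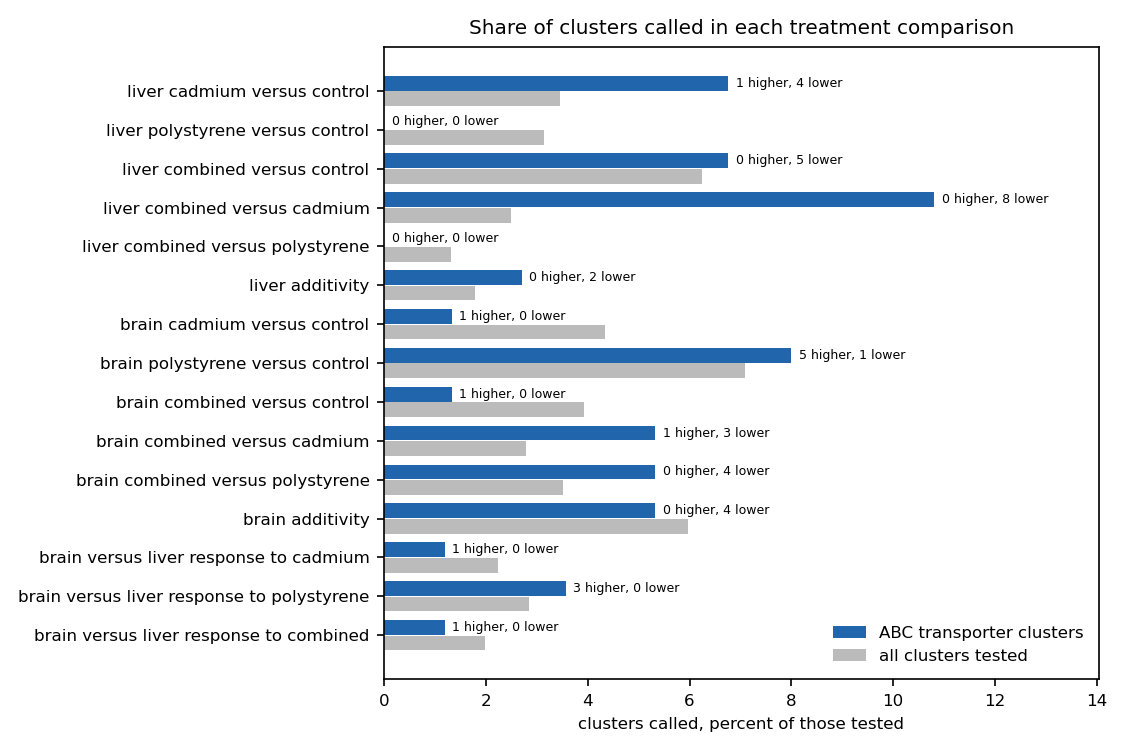
Percent of tested clusters called at an edgeR adjusted p under 0.05 (horizontal axis) in each of the 15 comparisons that involve an exposure (vertical axis), for ABC clusters and for all clusters. In combined against cadmium livers 8 of 74 ABC clusters were called, beside 2.5% of all clusters.

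Under exposure, few genes that work beside ABC transporters were called. Of the organic ion and drug carriers of the solute carrier families, which take up many substrates that ABC pumps export, 31 were tested in liver and 32 in brain. In combined livers 1 was higher and 1 lower, and in cadmium and polystyrene livers 1 was higher in each. Of all clusters, 6.24% were called in combined, 3.46% in cadmium and 3.14% in polystyrene livers, close to the share of these carriers. A SLC22A4-like cluster (Cluster-2499.71540) averaged 1.79 ± 0.792 CPM in combined, 4.67 ± 1.64 CPM in cadmium, 5.73 ± 1.03 CPM in polystyrene and 1.18 ± 0.455 CPM in control livers (SD, n = 3 each). It rose in cadmium livers by 1.97 (edgeR adjusted p = 0.0176) and in polystyrene livers by 2.26 (edgeR adjusted p = 0.00889) on the log2 scale, and departed from additivity by -3.66 (edgeR adjusted p = 0.00627). The cadmium call was lost without control replicate 1 or 3 or cadmium replicate 1, with edgeR adjusted p up to 0.0706. In brain the same cluster averaged 0.507 ± 0.129 CPM in combined and 2.52 ± 0.931 CPM in control samples and fell by 2.32 on the log2 scale (edgeR adjusted p = 0.016), a call lost without combined replicate 4 or 6 (p up to 0.0566). An organic cation transporter-like cluster (Cluster-2499.85946) averaged 2.06 ± 1.03 CPM in combined livers and 7.05 ± 0.723 CPM in control livers (log2 fold change -1.78, edgeR adjusted p = 0.00588). A SLCO2A1-like cluster (Cluster-2499.143079), named for a mammalian prostaglandin carrier, rose in brain under every exposure, averaging 2.52 ± 1.06 CPM in combined, 3.20 ± 0.776 CPM in cadmium, 3.14 ± 1.74 CPM in polystyrene and 0.440 ± 0.257 CPM in control brains. Its call in combined brains was lost without control replicate 5 or 6 or combined replicate 4 (edgeR adjusted p up to 0.0681). The carrier higher in combined livers, matching SLCO4A1 (Cluster-2499.96802, log2 fold change 1.06, edgeR adjusted p = 0.0378), lost its call without control replicate 2 or 3 or any 1 of the combined livers (p up to 0.125).

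Genes of glutathione metabolism were set beside the ABCC pumps, which in mammals export glutathione conjugates. Of 17 tested in each tissue, glutathione hydrolase clusters were the ones called against control, lower in combined livers (Cluster-2499.119052, log2 fold change -2.28, edgeR adjusted p = 0.033) and higher in polystyrene brains (Cluster-2499.36081, log2 fold change 1.07, edgeR adjusted p = 0.03). Of all clusters, 3.39% were lower in combined livers and 4.66% higher in polystyrene brains. The liver call was lost without control replicate 1 or 2 or combined replicate 1 or 3 (edgeR adjusted p up to 0.107), and the brain call without control replicate 5 or 6 or any 1 of the polystyrene brains (p up to 0.106). Cadmium brains gave 2 higher without control replicate 4, and cadmium livers 1 lower without control replicate 3. Among sterol and peroxisome partners, NPC1 (Cluster-2499.33656), which moves cholesterol out of lysosomes, averaged 5.77 ± 1.94 CPM in polystyrene brains and 1.36 ± 0.203 CPM in control brains (log2 fold change 2.07, edgeR adjusted p = 0.00483). It was 1 of 18 tested there, where 4.66% of all clusters were higher. Of 21 tested between tissues, 13 sterol and peroxisome partners were lower in control brain and 1 higher, where 26.2% and 23.5% of all clusters were. Among xenobiotic regulators, the NR1I2-like receptor (Cluster-2499.88002), whose mammalian form switches on ABCB1, averaged 0.121 ± 0.109 CPM in control brain and 25.6 ± 5.35 CPM in control liver. In combined livers 2 of 10 regulators were lower, an aryl hydrocarbon receptor (Cluster-2499.123104, log2 fold change -3.37, edgeR adjusted p = 0.0364) and a NR1I3-like receptor (Cluster-2499.77112, log2 fold change -0.60, edgeR adjusted p = 0.0391). Of all clusters, 3.39% were lower there. The NR1I3-like call was lost in all 6 omissions (edgeR adjusted p up to 0.146), and the aryl hydrocarbon receptor call in all but that of control replicate 1 (p up to 0.125). Of 6 ribosome recycling and termination partners of ABCE1, edgeR and DESeq2's Wald test each called 0 in the 3 exposures against control in either tissue, and 1 had an unadjusted p under 0.05, in combined livers. Between control brain and control liver, 2 of the 6 were lower in brain, but under library totals 0 were lower and 1 higher, so no direction is given for them.

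The 265 members with other names were taken in by the Pfam wording. They comprised 82 GTPase IMAP clusters, immune GTPases of vertebrate lymphocytes, 19 small GTPases, 13 RNF213 clusters, 12 dyneins, 11 clusters matching plant immune-associated nucleotide-binding proteins, 10 helicases, 6 interferon-induced protein 44 clusters, 6 myosins, 4 septins, 4 RAD50 or SMC proteins, 3 adenylate kinases and 95 others. The ABC nucleotide-binding Pfam domain was found in all 82 GTPase IMAP clusters but in 44 of the 95 others. In brain, 211 of the 265 were tested. Of these 15 were higher and 3 lower in combined, 16 and 4 in cadmium, and 28 and 2 in polystyrene brains. These were 8.53%, 9.48% and 14.2% of the 211, where 3.92%, 4.34% and 7.08% of all clusters were called. The total of 20 in cadmium brains became 9 without cadmium replicate 4, and the 30 in polystyrene brains became 18 without polystyrene replicate 5 or 6. In liver, 198 were tested, with 6 higher and 15 lower in combined, 3 and 5 in cadmium, and 5 and 4 in polystyrene livers. These were 10.6%, 4.04% and 4.55% of the 198, where 6.24%, 3.46% and 3.14% of all clusters were called. The liver totals hung on single libraries. The 21 in combined livers became 5 without control replicate 2, 11 without control replicate 3 or combined replicate 1 or 2, and 10 without combined replicate 3. The 8 in cadmium livers became 1 without control replicate 2 or 3, 3 without cadmium replicate 1 or 2, and 5 without cadmium replicate 3. The 9 in polystyrene livers became 3 without control replicate 2 or polystyrene replicate 2 or 3, and 5 without control replicate 1 or 3.

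GTPase IMAP clusters were the most frequent of these names among the brain calls. Of 48 tested, 13 were higher and 0 lower in combined, 8 and 2 in cadmium, and 15 and 1 in polystyrene brains. The cadmium counts were 6 and 0 without cadmium replicate 4. Cluster-2499.127502, matching family member 4, had 21.8, 12.3 and 29.4 CPM in combined and 11.4, 22.9 and 11.7 CPM in polystyrene brains, against 2.37, 4.09 and 4.56 CPM in control brains (log2 fold changes 2.50 and 2.04, edgeR adjusted p = 0.0027 and 0.00595). Every exposed brain of these 2 groups lay above every control. Not all moved up: Cluster-2499.104178, also matching member 4, had 1.23, 1.20 and 1.16 CPM in polystyrene brains, against 4.58, 8.85 and 5.33 CPM in control brains (log2 fold change -2.40, SE 0.31, edgeR adjusted p = 0.000751). RNF213, a large ubiquitin ligase, gave 3 higher of 11 tested in cadmium and 4 in polystyrene brains, and 0 in combined brains. The cadmium count was 0 without cadmium replicate 4 and 1 without cadmium replicate 6 or control replicate 4 or 6, and the polystyrene count was 2 without polystyrene replicate 5 or 6 or control replicate 6. In combined livers the dyneins gave 1 higher and 3 lower of 11 tested, beside the cilia markers described above, and 0 were lower without control replicate 2 or any 1 of the combined livers, against 6 without control replicate 1. The DHX15 helicase (Cluster-2499.93098), a splicing factor, had 108, 120.4 and 122 CPM in combined livers, against 173, 168 and 161 CPM in control livers (log2 fold change -0.54, SE 0.10, edgeR adjusted p = 0.00641).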

How the data were processed

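The authors deposited 1 table of expected counts per cluster for all 24 samples, with Pfam and Swiss-Prot annotation, per the file headers. Between 3.54% and 7.14% of all values per library, zeros included, were not whole, and all were rounded to whole numbers. The assembler, aligner and counter are not given in the sources used here. The submitters' processing notes name the mouse build mm10, which has no stated role, and no genome was used. RNA was extracted with a column kit and libraries were made with the SMARTER mRNA-Seq kit, per the labels' protocols. Every count column matched a sample, and no cluster lacked an identifier.

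Counts were filtered with filterByExpr (minimum count 10), scaled by TMM and fitted with 1 mean per group in edgeR 4.0.16 (R 4.3.3; robust quasi-likelihood), once per tissue on 12 samples and once on all 24 for comparisons across tissues. P-values were adjusted over all clusters tested, 55762 in liver, 64046 in brain and 78809 across tissues, and called under 0.05. The fit was tested on counts simulated for cadmium against control liver with 200 changed clusters. Alternatives were DESeq2 1.42.0, other filters and scalings, a replicate block, only the samples compared, and leaving out each library. Library totals without TMM and the sums without it were chosen after seeing the data.

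Same-numbered libraries did not deviate together (correlations -0.111 to 0.12 over 36 pairs), so the reported fits had no block. Members and gene lists were chosen with earlier results of these data known. Named clusters were, per comparison, up to 10 called per direction by smallest adjusted p (between tissues, by largest fold with at least 5 CPM in the higher tissue) and the 2 most abundant per subfamily, applied separately to the 104 ABC-named and the 265 other members, a reading made after the names were seen. Subfamily was also read from the gene symbol within the Swiss-Prot description. No table held sequences of these clusters, so none is shown.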

Additional observations from a re-analysis of the deposited data

Results flagged for a closer look

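In 5 results the response of an ABC cluster differed between brain and liver by the interaction test of edgeR's quasi-likelihood fit on all 24 samples. Differences are brain minus liver log2 responses, so positive values mean a higher response in brain. For ABCA3 (Cluster-2499.69072) the difference was 2.48 for combined exposure, 2.76 for cadmium and 1.86 for polystyrene. For the polystyrene response it was 2.62 for ABCA2 (Cluster-2499.80156) and 3.82 for ABCC1 (Cluster-2499.93807). Groups of 3 samples were too small for a test of single outlying samples.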

How the results depend on the processing

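Counts here are of ABC clusters called, both directions together. Without a filter on low counts there were 9 in cadmium, 3 in combined, 13 in combined against cadmium and 3 in combined against polystyrene livers and 6 departures from additivity there, 7 in cadmium, 12 in polystyrene and 6 in combined brains and 10 departures there, and 7, 7 and 4 differences between tissues for cadmium, polystyrene and combined exposure. DESeq2's Wald test called 8 in cadmium, 2 in polystyrene and 2 in combined against polystyrene livers, 4 in cadmium and 4 in combined brains, 8 departures in brain, and 4, 6 and 2 differences between tissues. A fit on only the samples compared left 3 in combined livers and 0 in combined against cadmium livers, combined brains and the tissue difference for combined exposure. Library totals without TMM gave 2 in combined against polystyrene livers and 7 departures in brain, and sums over the 104 clusters of 1562 CPM in combined, 1797 in cadmium, 1854 in polystyrene and 1825 in control livers and of 1879 CPM in combined, 1993 in cadmium, 2164 in polystyrene and 1843 in control brains. Under library totals the log2 fold changes of brain over liver turned positive for 11 clusters, among them 0.18 for ABCG1 (Cluster-2499.84840), 0.61 for ABCF3 (Cluster-2499.86944) and 0.092 for ABCE1 (Cluster-2499.89862). The cause of these changes was not tested.

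Leaving out 1 library at a time gave 0 to 5 calls for cadmium, 0 to 0 for polystyrene, 0 to 3 for combined, 1 to 8 for combined against cadmium, 0 to 1 for combined against polystyrene and 0 to 4 for departures in liver. In brain it gave 1 to 2 for cadmium, 2 to 5 for polystyrene, 1 to 3 for combined, 1 to 3 for combined against cadmium, 0 to 3 for combined against polystyrene and 1 to 5 for departures. Between tissues it gave 62 to 66 in controls, 1 to 3 for cadmium, 2 to 4 for polystyrene and 1 to 2 for combined. Of 74 named calls, 37 held in every omission and 30 in every omission and alternative run.

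With the replicate number as a block, combined against cadmium livers gave 5 calls and the departures in liver 1. The numbers do not mark pairs, and the block moved no other count of ABC calls by more than 1.5 times. No paired analysis was possible between control brain and control liver because they share no replicate numbers. Low counts left 30 of the 104 clusters out of the liver fit and 29 out of the brain fit, some of them with reads mainly in the other tissue, and 20 out of the fit on all samples. Calls among the other 265 members moved too: without a filter to 14 in cadmium and 19 in polystyrene livers and to 36 in combined, 39 in cadmium and 53 in polystyrene brains, by DESeq2's Wald test to 37 in combined, 18 in cadmium and 14 in polystyrene livers, with the block to 3 in cadmium livers, and on only the samples compared to 4 in cadmium livers and 10 in combined brains.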
